A study of Mus musculus with 8 samples.

Results

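The genes described here are 48 mouse genes of DNA repair and genome stability, taken as a list by their function. This list and the other gene lists used here were chosen with earlier results of these data known. Shares set beside those of all genes therefore describe these lists and do not test them. A gene was taken where a row of the expression table carried that symbol and no other, and the row with the highest mean over the 8 arrays stood for it. Rows were found for 46 of the 48 genes, among 19938 genes measured in this way. Trp53 and Xrcc2 are not analysed here. The study sorted XCR1+ dendritic cells, the spleen dendritic cells that take up dead cells and cross-present their antigens, from untreated Il12b-EYFP reporter mice. Every fraction was Lin-, Bst2-/low, CD11c high and CD8α+, and every mouse carried the reporter, in which a yellow fluorescent protein marks cells that transcribe Il12b. Homeostatically matured cells, which express the lymph node homing receptor CCR7 without any stimulus, were split into CCR7+Il12b+ cells (EYFP+, n = 2 arrays) and CCR7+Il12b- cells (EYFP-, n = 3 arrays). They were set against immature cells, which are CCR7- and EYFP- (n = 3 arrays). The sources used here do not give the age, sex or number of mice, or whether each replicate had a mouse or pool of its own. The p-values therefore cover only the spread between these arrays, which may be technical.

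DNA repair works as a set of pathways, each for a kind of lesion. Breaks of both strands are sensed by the Mre11, Rad50 and Nbn complex and by the kinases Atm and Atr, which signal through Chek2 and Chek1 to the cell cycle and to p53, the transcription factor that Mdm2 and Mdm4 hold in check. Such breaks are then joined end to end, or copied from the sister chromatid by homologous recombination, which is largely restricted to cells that have replicated their DNA. Mismatch repair corrects replication errors, base excision repair removes damaged bases, nucleotide excision repair removes bulky lesions, and the Fanconi anaemia pathway unhooks crosslinks between strands. Mature dendritic cells are in general non-dividing or nearly so, whereas some immature spleen dendritic cells still divide. Cell division was not measured here.

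Expression is given as the deposited log2 values, and a change as the difference of group means on that scale with its standard error (SE). A gene was called where the Benjamini-Hochberg adjusted p over all 19938 genes, from limma fitted on all 8 arrays, was under 0.05. A background mark of 4.98 on the log2 scale was set from olfactory and vomeronasal receptor genes. Of the 46 genes, 40 had at least 1 group mean above the mark and 32 had all 3 above it. Brca2, Palb2, Fancb, Fancd2, Fancm and Xrcc5 lay below it in all groups. Where the dimmer group lay below the mark, the fold is given as a lower bound.

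All 11 markers of XCR1+ dendritic cells lay above the mark in each fraction, with summed linear levels from 7895 to 9224 on CCR7+Il12b+ arrays, from 11545 to 14235 on CCR7+Il12b- arrays and from 18130 to 19651 on immature arrays. Of the 11, 8 fell and 1 rose in CCR7+Il12b+ and 5 fell and 1 rose in CCR7+Il12b- against immature cells. Xcr1 was 8.09-fold and 2.57-fold lower. Tlr3 was 28.2-fold lower in CCR7+Il12b+ cells, where it averaged 5.31, close to the mark. CCR7+Il12b- replicate 3 stood apart from its group, with a mean marker difference from immature cells of -0.84 on the log2 scale, against -0.46 and -0.40 for replicates 1 and 2. Markers of other cell types also moved between the fractions. Of 8 markers of CD11b+ dendritic cells 3 rose and 2 fell in CCR7+Il12b+ and 4 rose and 1 fell in CCR7+Il12b- against immature cells (Tmem176a by 3.20 and 2.84 on the log2 scale), and their summed linear level was 1794 to 1917, 1678 to 2011 and 560.5 to 844 on CCR7+Il12b+, CCR7+Il12b- and immature arrays. Of 7 monocyte or macrophage markers 4 fell and 0 rose in CCR7+Il12b+ and 3 fell and 1 rose in CCR7+Il12b- cells (Lyz2 was 8.62-fold and 2.74-fold lower), with sums of 288 to 418, 582 to 925 and 1743 to 2122. Of 7 plasmacytoid markers 4 fell and 0 rose in each, with sums of 688 to 700.4, 709 to 797 and 1012 to 1221. The CD11b+ sums of all matured arrays thus lay above, and the monocyte and plasmacytoid sums below, those of all immature arrays. Tmem176a, the brightest of the 8 CD11b+ markers on the matured arrays, weighed most in these sums. Its means were 10.32, 9.96 and 7.12 in CCR7+Il12b+, CCR7+Il12b- and immature cells. The median log2 change of the 8 was -0.01 in CCR7+Il12b+ and 0.74 in CCR7+Il12b- against immature cells. Of 7 B cell markers 1 rose and 2 fell in CCR7+Il12b+ and 3 rose and 1 fell in CCR7+Il12b- cells (Ms4a1 was 1.88-fold and 2.85-fold higher), with sums of 501 to 509, 649.5 to 847 and 442 to 522. Of 7 T or NK cell markers 1 fell in CCR7+Il12b+ and 2 rose in CCR7+Il12b- cells, of 5 erythroid markers 2 rose in each, and of 8 neutrophil markers 0 were called. Below the mark in all fractions were Clec4a4, Dntt, Cd79a, 4 T or NK cell, 2 monocyte or macrophage, 3 neutrophil and 1 erythroid marker. The part of other cells in the repair gene changes was not tested.

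More of the DNA repair genes fell than rose in both matured fractions. In CCR7+Il12b+ cells against immature cells 16 of the 46 genes fell and 8 rose. These are 34.8% and 17.4% of the 46, beside 17.9% and 14.1% of all genes and 27.1% and 19.3% of genes with a group mean above the mark. In CCR7+Il12b- cells against immature cells 14 fell and 6 rose, or 30.4% and 13.0% of the 46, beside 14.5% and 9.10% of all genes and 22.1% and 13.0% of those above the mark. In CCR7+Il12b+ cells against CCR7+Il12b- cells 3 fell (Atm, Prkdc and Apex1) and 2 rose (Mdm2 and Wrn). That is 6.52% and 4.35% of the 46, beside 4.47% and 2.61% of all genes and 6.85% and 3.97% of those above the mark. The shares that rose were thus near those of genes above the mark in each comparison. So was the share that fell between the matured fractions. The median log2 change of the 46 genes was -0.25, -0.22 and -0.06 in these comparisons, and that of all genes 0.09, 0.06 and 0.02. The first 2 comparisons share the immature arrays. The summed linear level of the 46 genes went the other way in CCR7+Il12b+ cells. It was 5632 to 6020 on CCR7+Il12b+, 5191 to 5419 on CCR7+Il12b- and 4975 to 5459 on immature arrays. Bright genes weigh most in such a sum, and Mdm4 and Mdm2, the brightest in CCR7+Il12b+ cells, rose. Dropping immature replicate 2 or 3 left 9 of the 14 falls called in CCR7+Il12b- against immature cells. Between the matured fractions the counts rested on single arrays, with 0 rises and 0 falls left without CCR7+Il12b+ replicate 1, and median centring gave 0 rises and 3 falls. These are bulk RNA values of sorted cells, in which fewer cells of a kind and less RNA per cell cannot be told apart.

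The sizes were moderate. In CCR7+Il12b+ against immature cells 5 called genes had a fitted log2 change of -1 or below (Atm, Chek2, Xrcc6, Parp1 and Apex1) and 2 one of at least 1 (Mdm2 and Wrn), beside 8.21% and 4.51% of all genes. Atm and Chek2 lay below the mark in CCR7+Il12b+ cells, so that their falls are bounds of at least 2.43-fold and 1.62-fold. In CCR7+Il12b- against immature cells 0 had a change of either size, beside 3.21% of all genes lower and 2.89% higher, and between the matured fractions 0, beside 1.52% and 0.466%. Every CCR7+Il12b+ array lay below every immature array for 24 of the 46 genes and above for 10, beside 23.6% and 33.5% of all genes. All 25 measured proliferation genes, such as the S-phase cyclin Ccna2 and the topoisomerase Top2a, fell in each matured fraction, and their summed linear level was 1376 to 1438 on CCR7+Il12b+ arrays, 2531 to 3239 on CCR7+Il12b- arrays and 4902 to 6353 on immature arrays. Their part in the changes of the repair genes was not tested. Labelling started from 3 or 20 ng of RNA, with no input stated by sample, and if the inputs followed the fractions, input and fraction cannot be told apart.

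**Figure D1:**
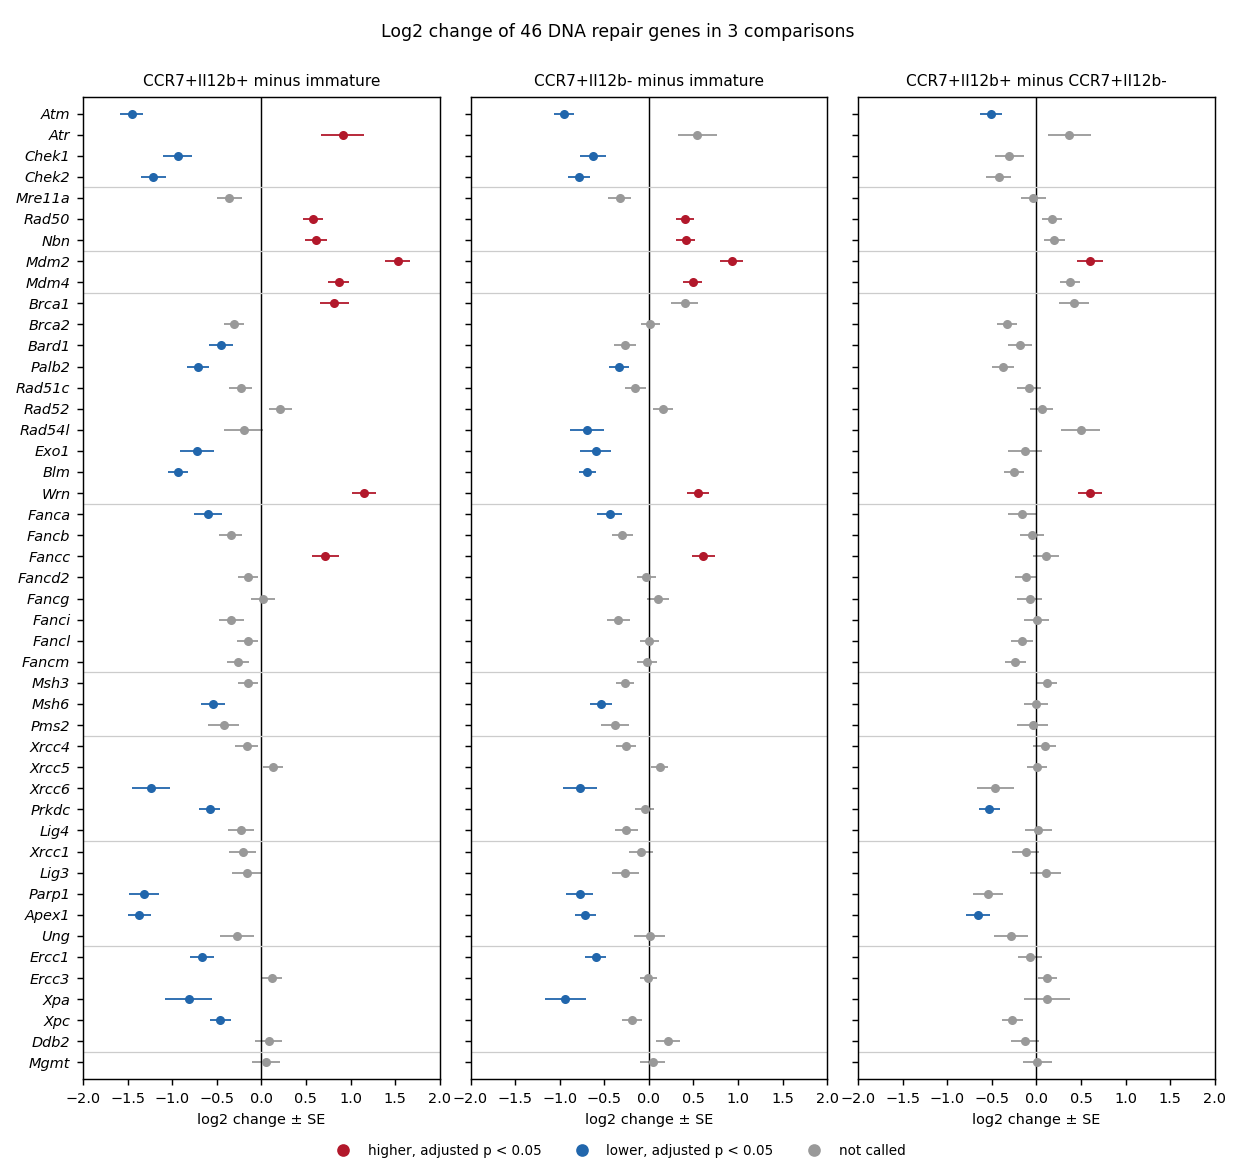
Log2 change (x axis, points with SE bars) of each of the 46 DNA repair genes (y axis, grouped by repair role with lines between roles) in CCR7+Il12b+ minus immature, CCR7+Il12b- minus immature and CCR7+Il12b+ minus CCR7+Il12b- cells. Red points were called higher, blue points lower and grey points were not called. Atm (-1.45) and Mdm2 (1.53) are the outermost called genes in the left panel.

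The kinases that signal damage moved in opposite directions, with Atm, Chek1 and Chek2 lower and Atr higher in CCR7+Il12b+ than in immature cells. These are 75% and 25% of the 4 kinases, beside 17.9% of all genes lower and 14.1% higher. Atm, the kinase activated by double-strand breaks, had log2 expression of 4.89 and 4.72 on the CCR7+Il12b+ arrays, 5.44, 5.27 and 5.22 on the CCR7+Il12b- arrays and 6.12, 6.35 and 6.30 on the immature arrays. The 3 fractions did not overlap. Atm was at least 2.43-fold lower in CCR7+Il12b+ than in immature cells, since its CCR7+Il12b+ mean was below the mark (log2 change -1.45, SE 0.13, adjusted p = 5.87e-06). It fell by 0.95 on the log2 scale in CCR7+Il12b- against immature cells (SE 0.11, adjusted p = 0.000143). Between the matured fractions it was at least 1.26-fold lower in CCR7+Il12b+ cells (log2 change -0.51, SE 0.13, adjusted p = 0.0344). Only the fits without immature replicate 1 or CCR7+Il12b- replicate 3 kept this call when 1 array was dropped, and the other 6 gave adjusted p from 0.0590 to 0.166. It also ended in the fit on 2 groups (0.0799) and with array weights (0.0600).

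Atr, the kinase that answers to stalled replication forks and single-stranded DNA, went the other way. Its log2 expression was 7.58 and 6.81 on the CCR7+Il12b+ arrays, 7.26, 6.58 and 6.65 on the CCR7+Il12b- arrays and 6.15, 6.30 and 6.41 on the immature arrays. All matured arrays lay above all immature ones, and replicate 1 was the highest of its fraction in both matured fractions. Atr rose in CCR7+Il12b+ against immature cells (log2 change 0.91, SE 0.24, 1.88-fold, adjusted p = 0.0127), but without CCR7+Il12b+ replicate 1 the change was 0.53 and the call was lost (adjusted p = 0.134), as it was after centring each array on its median (adjusted p = 0.0501). Its change of 0.54 in CCR7+Il12b- against immature cells was not called (SE 0.21, adjusted p = 0.0963).

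Chek2, the kinase downstream of Atm, had log2 expression of 4.42 and 4.51 in CCR7+Il12b+ cells, 4.90, 4.99 and 4.78 in CCR7+Il12b- cells and 5.61, 5.50 and 5.91 in immature cells. Its immature arrays were the only ones clearly above the mark. It was at least 1.62-fold lower in CCR7+Il12b+ than in immature cells (log2 change -1.21, SE 0.14, adjusted p = 4.73e-05) and at least 1.62-fold lower in CCR7+Il12b- than in immature cells (log2 change -0.79, SE 0.12, adjusted p = 0.000888). Chek1, the kinase downstream of Atr, averaged 4.17 ± 0.25, 4.47 ± 0.13 and 5.10 ± 0.23 on the log2 scale in CCR7+Il12b+, CCR7+Il12b- and immature cells (SD, n = 2, 3 and 3), close to the mark even where it was highest. It was at least 1.09-fold lower in each matured fraction than in immature cells (adjusted p = 0.000960 for CCR7+Il12b+ and 0.00861 for CCR7+Il12b- cells).

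The promoters of Atm and Atr, printed from 250 bases before to 50 after the RefSeq start site (GRCm38.p6), show what the pair of opposed kinases carry upstream. Capitals mark the CCAAT box, which reads ATTGG where it lies on the other strand. The Atm window holds 1, at position -165 from the start site, and the Atr window holds none of the motifs searched.
Atm, chr9:53536622-53536921, - strand: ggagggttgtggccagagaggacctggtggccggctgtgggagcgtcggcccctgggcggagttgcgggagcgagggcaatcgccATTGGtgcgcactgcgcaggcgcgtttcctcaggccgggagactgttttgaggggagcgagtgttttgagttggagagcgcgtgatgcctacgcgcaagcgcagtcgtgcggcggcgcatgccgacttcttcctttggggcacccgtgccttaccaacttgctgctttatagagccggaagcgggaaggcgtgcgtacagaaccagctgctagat
Atr, chr9:95857347-95857646, + strand: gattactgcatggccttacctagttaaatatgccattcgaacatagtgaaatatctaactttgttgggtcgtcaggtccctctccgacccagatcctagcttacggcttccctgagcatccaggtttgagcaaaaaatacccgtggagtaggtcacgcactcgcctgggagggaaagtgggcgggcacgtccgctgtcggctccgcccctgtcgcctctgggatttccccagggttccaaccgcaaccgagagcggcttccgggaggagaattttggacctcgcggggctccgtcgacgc

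**Figure D2:**
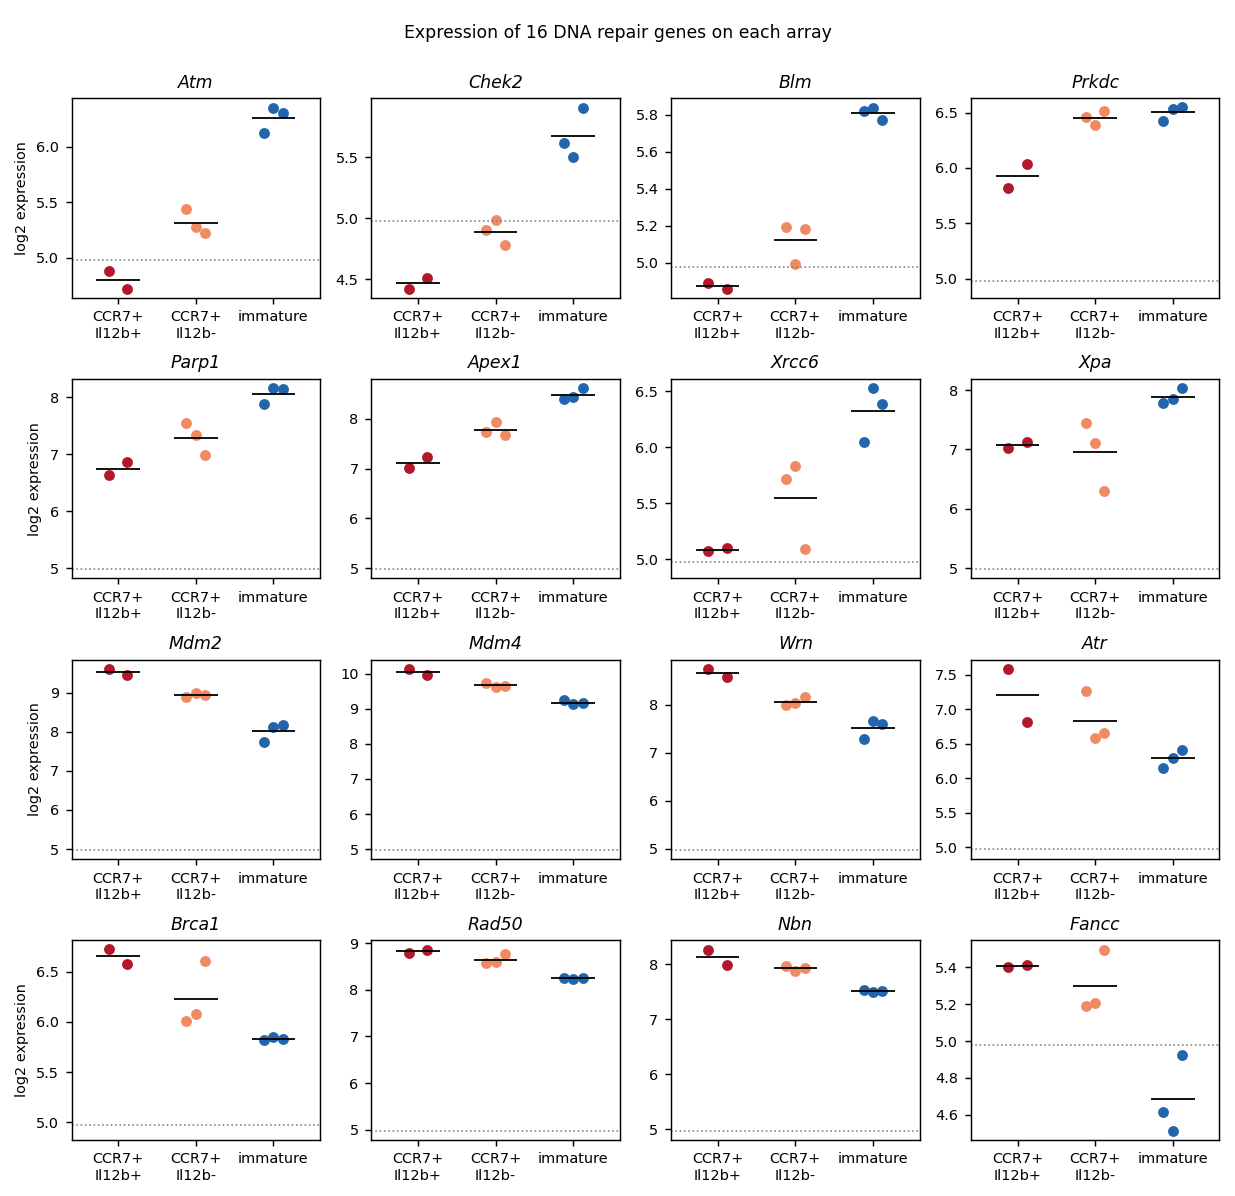
Log2 expression (y axis, 1 panel per gene with its own scale) of 16 DNA repair genes on each array, with CCR7+Il12b+, CCR7+Il12b- and immature arrays from left to right. Points are arrays, black bars are group means and the dotted line, where it is in view, is the background mark of 4.98. In the upper rows the CCR7+Il12b+ points lie below the immature points (Atm, Chek2, Blm, Prkdc, Parp1, Apex1, Xrcc6, Xpa), and in the lower rows above them (Mdm2, Mdm4, Wrn, Atr, Brca1, Rad50, Nbn, Fancc).

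Of the break-sensing complex, Rad50 and Nbn rose in both matured fractions, and Mre11a did not pass the test. Rad50, the ATPase that tethers broken ends, had log2 expression of 8.78 and 8.87 on the CCR7+Il12b+ arrays, 8.58, 8.61 and 8.77 on the CCR7+Il12b- arrays and 8.26, 8.24 and 8.25 on the immature arrays. Nbn, the subunit that recruits Atm, had 8.27 and 7.98 in CCR7+Il12b+ cells, 7.98, 7.88 and 7.93 in CCR7+Il12b- cells and 7.53, 7.49 and 7.52 in immature cells. For both genes each matured array lay above each immature array, and the immature arrays differed by less than 0.1 on the log2 scale. The rises in CCR7+Il12b+ against immature cells were 1.49-fold for Rad50 (adjusted p = 0.00194) and 1.53-fold for Nbn (adjusted p = 0.00200). They were 1.32-fold (adjusted p = 0.0129) and 1.33-fold (adjusted p = 0.0153) in CCR7+Il12b- cells. Leaving out immature replicate 2 ended both of these calls for CCR7+Il12b- cells (adjusted p = 0.0535 for Rad50 and 0.0627 for Nbn), and that of Nbn also ended without immature replicate 3 (0.0546) and after median centring (0.0685). When every row with 1 symbol was tested by limma, the dimmer row of Nbn (mean 6.34) was not called. Its changes against immature cells were 0.34 in CCR7+Il12b+ (adjusted p = 0.0805) and 0.22 in CCR7+Il12b- cells (0.234). Mre11a, the nuclease of the complex, had log2 differences of -0.36 for CCR7+Il12b+ and -0.33 for CCR7+Il12b- cells from immature cells (adjusted p = 0.0786 and 0.0928). Median centring (0.0311) and leaving out immature replicate 1 (0.0248) made it a called fall in CCR7+Il12b+ cells. Both of these and array weights did so in CCR7+Il12b- cells (adjusted p from 0.0271 to 0.0474).

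Both inhibitors of p53 rose with maturation. Mdm2, the ubiquitin ligase that marks p53 for degradation and is itself a p53 target, had log2 expression of 9.61 and 9.46 in CCR7+Il12b+ cells, 8.89, 8.98 and 8.93 in CCR7+Il12b- cells and 7.73, 8.11 and 8.17 in immature cells. The fractions formed 3 separate steps. Mdm2 was 2.88-fold higher in CCR7+Il12b+ than in immature cells (log2 change 1.53, SE 0.14, adjusted p = 1.04e-05), 1.90-fold higher in CCR7+Il12b- than in immature cells (log2 change 0.93, SE 0.13, adjusted p = 0.000370) and 1.52-fold higher in CCR7+Il12b+ than in CCR7+Il12b- cells (log2 change 0.60, SE 0.14, adjusted p = 0.0288). Mdm4, the relative of Mdm2 that binds and silences p53, had 10.14 and 9.95 in CCR7+Il12b+ cells, 9.74, 9.62 and 9.64 in CCR7+Il12b- cells and 9.24, 9.12 and 9.17 in immature cells, again without overlap. It was 1.82-fold higher in CCR7+Il12b+ than in immature cells (adjusted p = 0.000133) and 1.40-fold higher in CCR7+Il12b- than in immature cells (adjusted p = 0.00498), and its difference of 0.38 between the matured fractions was not called (adjusted p = 0.0806). The Mdm2 call between the matured fractions ended without any 1 of their arrays except CCR7+Il12b- replicate 3 (adjusted p from 0.0688 to 0.156) after median centring (0.0686) and with array weights (0.0544).

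Known target genes of p53 were mixed. Of 20 measured, 7 rose and 4 fell in CCR7+Il12b+ against immature cells, 6 rose and 2 fell in CCR7+Il12b- against immature cells, and 4 rose and 0 fell between the matured fractions by limma, with 1 lower at an unadjusted p under 0.05 (Ei24, named after its value was seen). These are 35% and 20%, 30% and 10%, and 20% and 0% of the 20, beside 14.1% and 17.9%, 9.10% and 14.5%, and 2.61% and 4.47% of all genes that rose and fell. The shares that fell were near or below those of all genes. Their median log2 changes were 0.12, 0.15 and 0.04, beside 0.09, 0.06 and 0.02 for all genes. The death receptor gene Fas averaged 10.48, 9.19 and 6.24 in CCR7+Il12b+, CCR7+Il12b- and immature cells, a change of 4.24 in CCR7+Il12b+ against immature cells (adjusted p = 2.31e-08). The kinase gene Plk2 (change 2.32), the stress gene Trp53inp1 (1.40) and the growth arrest gene Gadd45a (1.20) also rose in that comparison. The 4 that fell in it, named after their values were seen, were Btg2 (-0.82), Ei24 (-0.73), Ccng1 (-0.65) and Rrm2b (-0.35).

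The promoters of Mdm2 and Mdm4, genes that rose together, are shown for the same window. The Mdm2 window holds 1 CCAAT box, at position -72, and the 2 windows of Mdm4 hold none of the motifs searched.
Mdm2, chr10:117710709-117711008, - strand: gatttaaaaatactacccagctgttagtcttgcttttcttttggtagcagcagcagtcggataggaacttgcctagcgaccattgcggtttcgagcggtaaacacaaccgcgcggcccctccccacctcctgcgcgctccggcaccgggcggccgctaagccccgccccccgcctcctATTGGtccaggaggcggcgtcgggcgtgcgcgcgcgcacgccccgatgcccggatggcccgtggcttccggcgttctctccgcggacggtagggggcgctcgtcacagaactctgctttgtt
Mdm4, chr1:133025367-133025666, - strand: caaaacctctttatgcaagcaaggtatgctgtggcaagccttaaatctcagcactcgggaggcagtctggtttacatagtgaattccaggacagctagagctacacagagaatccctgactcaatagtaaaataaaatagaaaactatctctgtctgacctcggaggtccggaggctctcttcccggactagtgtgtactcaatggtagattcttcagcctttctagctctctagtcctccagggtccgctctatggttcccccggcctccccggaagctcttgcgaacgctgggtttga
Mdm4, chr1:133030538-133030837, - strand: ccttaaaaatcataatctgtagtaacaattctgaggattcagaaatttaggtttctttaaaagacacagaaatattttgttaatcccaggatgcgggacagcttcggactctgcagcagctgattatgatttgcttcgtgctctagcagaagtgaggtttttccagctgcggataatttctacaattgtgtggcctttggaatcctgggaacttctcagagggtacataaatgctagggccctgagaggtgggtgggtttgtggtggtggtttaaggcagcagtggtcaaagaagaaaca

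Homologous recombination genes and the helicases that act with them split. In CCR7+Il12b+ against immature cells Brca1 and Wrn rose, Bard1, Palb2, Exo1 and Blm fell, and Brca2, Rad51c, Rad52 and Rad54l were not called. Of these 10 genes 20% rose and 40% fell, beside 14.1% and 17.9% of all genes. Of genes with a group mean above the mark 19.3% rose and 27.1% fell, so the share that rose was near theirs. Brca1, which with its partner Bard1 licenses recombination at breaks, had log2 expression of 6.72 and 6.58 on the CCR7+Il12b+ arrays, 6.01, 6.08 and 6.61 on the CCR7+Il12b- arrays and 5.82, 5.85 and 5.83 on the immature arrays. CCR7+Il12b- replicate 3 lay inside the range of the CCR7+Il12b+ arrays and the other two of its fraction lay nearer to the immature ones. Brca1 was 1.76-fold higher in CCR7+Il12b+ than in immature cells (log2 change 0.82, SE 0.17, adjusted p = 0.00274). Its changes in CCR7+Il12b- against immature cells (0.40, SE 0.15, adjusted p = 0.0778) and between the matured fractions (0.42, SE 0.17, adjusted p = 0.199) were not called, and without CCR7+Il12b- replicate 3 the change between the matured fractions was 0.61 (adjusted p = 0.0110). Bard1 moved against its partner, being 1.36-fold lower in CCR7+Il12b+ than in immature cells (log2 change -0.45, SE 0.14, adjusted p = 0.0263). This call was lost when CCR7+Il12b+ replicate 1 or any 1 immature array was dropped (adjusted p from 0.0576 to 0.160). Bard1 had 3 rows with its symbol, and all of them had negative changes in both matured fractions against immature cells.

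The RecQ helicases Wrn and Blm also moved apart. Wrn, the helicase and exonuclease whose loss causes Werner syndrome in people, had log2 expression of 8.75 and 8.59 in CCR7+Il12b+ cells, 8.01, 8.05 and 8.17 in CCR7+Il12b- cells and 7.29, 7.66 and 7.60 in immature cells, without overlap. It was 2.22-fold higher in CCR7+Il12b+ than in immature cells (adjusted p = 6.19e-05), 1.47-fold higher in CCR7+Il12b- than in immature cells (adjusted p = 0.00680) and 1.51-fold higher in CCR7+Il12b+ than in CCR7+Il12b- cells (adjusted p = 0.0240). The last call ended without CCR7+Il12b- replicate 1 or 2 (0.0737 and 0.0803), without CCR7+Il12b+ replicate 1 or 2 (0.142 and 0.0539) and after median centring (0.0542). Blm, which dissolves crossed recombination intermediates, had 4.89 and 4.86 in CCR7+Il12b+ cells, 5.19, 4.99 and 5.18 in CCR7+Il12b- cells and 5.82, 5.84 and 5.77 in immature cells. It was at least 1.78-fold lower in CCR7+Il12b+ than in immature cells (log2 change -0.94, adjusted p = 6.80e-05) and 1.61-fold lower in CCR7+Il12b- than in immature cells (adjusted p = 0.000561).

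Exo1, the nuclease that resects broken ends, was at least 1.47-fold lower in CCR7+Il12b+ and at least 1.44-fold lower in CCR7+Il12b- than in immature cells (adjusted p = 0.0137 and 0.0277). Its CCR7+Il12b+ call ended without CCR7+Il12b+ replicate 1 (0.102), and its CCR7+Il12b- call when replicate 1 or 2 of that fraction or replicate 2 or 3 of the immature cells was dropped (from 0.0527 to 0.111). Palb2, which links Brca1 to Brca2, lay below the mark in all fractions, so no fold is given. Its log2 differences from immature cells were -0.71 in CCR7+Il12b+ cells (adjusted p = 0.000961) and -0.33 in CCR7+Il12b- cells (adjusted p = 0.0490), and the second call was lost whichever array was dropped (adjusted p from 0.0522 to 0.203). Rad54l, the motor that helps strands pair, was 1.62-fold lower in CCR7+Il12b- than in immature cells (log2 change -0.70, SE 0.19, adjusted p = 0.0237). Dropping CCR7+Il12b- replicate 3 or immature replicate 2 or 3 ended that call (adjusted p from 0.0508 to 0.106). Its change of -0.20 in CCR7+Il12b+ against immature cells was not called (adjusted p = 0.516). Rad51c, Rad52 and Brca2 were not called in any comparison, with log2 changes between -0.33 and 0.21.

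**Figure D3:**
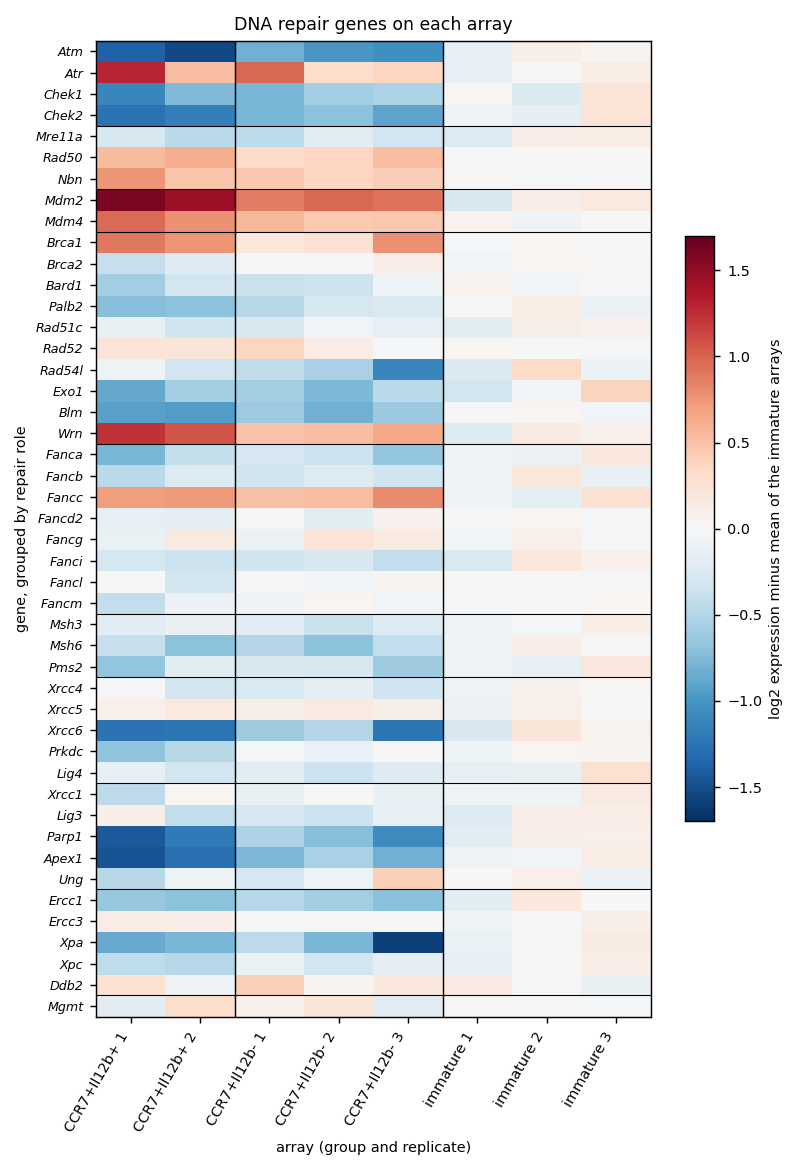
Log2 expression minus the mean of the immature arrays (colour, red above and blue below) for the 46 DNA repair genes (rows, grouped by repair role) on each of the 8 arrays (columns, with the CCR7+Il12b+, CCR7+Il12b- and immature arrays from left to right). Opposed neighbours within a role are visible for Atm and Atr, for Brca1 and Bard1 and for Wrn and Blm.

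Of 8 Fanconi anaemia genes measured, 1 rose and 1 fell in each matured fraction against immature cells. Each is 12.5% of the 8, near the share of all genes, which was 14.1% higher and 17.9% lower in CCR7+Il12b+ and 9.10% and 14.5% in CCR7+Il12b- against immature cells. By limma 0 of 8 were called between the matured fractions, where 0 also had an unadjusted p under 0.05. Fancc, a subunit of the core ubiquitin ligase, had log2 expression of 5.40 and 5.41 in CCR7+Il12b+ cells, 5.19, 5.21 and 5.50 in CCR7+Il12b- cells and 4.62, 4.51 and 4.92 in immature cells. Its immature arrays were all below the mark and its matured arrays all above it. Fancc was at least 1.34-fold higher in CCR7+Il12b+ and at least 1.25-fold higher in CCR7+Il12b- than in immature cells (adjusted p = 0.00302 and 0.00618). Fanca, a subunit of the same ligase, was 1.51-fold lower in CCR7+Il12b+ and 1.36-fold lower in CCR7+Il12b- than in immature cells (adjusted p = 0.0136 and 0.0459). The first of these calls ended without immature replicate 3 (0.0560) or CCR7+Il12b+ replicate 1 (0.114), and the second without any 1 of 5 arrays, namely the immature ones and CCR7+Il12b- replicates 2 and 3 (from 0.0646 to 0.185). The second also ended after a further quantile normalization (0.0813), after cyclic loess (0.0644) and with an intensity trend in the variance (0.0597). Fancb, Fancd2, Fancg, Fanci, Fancl and Fancm had log2 changes between -0.34 and 0.10 across the comparisons.

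In mismatch repair, Msh6, which recognises mispaired bases, was 1.45-fold lower in each matured fraction than in immature cells (log2 change -0.54 in both, adjusted p = 0.0101 for CCR7+Il12b+ and 0.00785 for CCR7+Il12b- cells). The CCR7+Il12b+ call ended without CCR7+Il12b+ replicate 2 (adjusted p = 0.105). The difference of Msh6 between the matured fractions was below 0.01 on the log2 scale (SE 0.14). Msh3, which recognises small loops, and Pms2, the nuclease of the next step, had log2 changes of -0.15 and -0.42 in CCR7+Il12b+ and -0.27 and -0.38 in CCR7+Il12b- against immature cells and were not called.

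Of 5 end joining genes Xrcc6 and Prkdc fell in CCR7+Il12b+ against immature cells. That is 40% of the 5, beside 17.9% of all genes and 27.1% of genes with a group mean above the mark. Xrcc6 encodes Ku70, which with Ku80 caps broken ends, and had log2 expression of 5.07 and 5.10 on the CCR7+Il12b+ arrays, 5.72, 5.83 and 5.09 on the CCR7+Il12b- arrays and 6.05, 6.53 and 6.39 on the immature arrays. CCR7+Il12b- replicate 3 lay between the CCR7+Il12b+ arrays, away from the other two of its fraction. Xrcc6 was 2.36-fold lower in CCR7+Il12b+ than in immature cells (log2 change -1.24, SE 0.21, adjusted p = 0.000830) and 1.71-fold lower in CCR7+Il12b- than in immature cells (log2 change -0.78, SE 0.19, adjusted p = 0.0115), where leaving out immature replicate 2 gave an adjusted p of 0.0573. Without CCR7+Il12b- replicate 3 its difference between the matured fractions was -0.69 (adjusted p = 0.0249), against -0.46 with it (adjusted p = 0.277).

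Prkdc, the kinase that Ku recruits to ends, had 5.82 and 6.03 in CCR7+Il12b+ cells, 6.46, 6.38 and 6.51 in CCR7+Il12b- cells and 6.43, 6.53 and 6.55 in immature cells. Here CCR7+Il12b- and immature arrays overlapped and the CCR7+Il12b+ arrays lay below both. Prkdc was 1.49-fold lower in CCR7+Il12b+ than in immature cells (adjusted p = 0.00267) and 1.44-fold lower than in CCR7+Il12b- cells (adjusted p = 0.0204), and its change was -0.05 in CCR7+Il12b- against immature cells (SE 0.10, adjusted p = 0.780). The call between the matured fractions ended without CCR7+Il12b- replicate 1 (adjusted p = 0.0575) or CCR7+Il12b+ replicate 1 (0.127), and in the fit on 2 groups (0.0650). Xrcc5, which encodes Ku80, was listed below the mark on all arrays (3.89 to 4.15), and Xrcc4 and the ligase gene Lig4 were not called, with changes from -0.25 to 0.09.

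Of 5 genes of base excision and single-strand break repair, Apex1 and Parp1 fell in both matured fractions against immature cells. That is 40% of the 5 in each, beside 17.9% of all genes in CCR7+Il12b+ and 14.5% in CCR7+Il12b- against immature cells. Apex1, the endonuclease that cuts at sites where a base is missing, had log2 expression of 7.02 and 7.23 on the CCR7+Il12b+ arrays, 7.73, 7.94 and 7.67 on the CCR7+Il12b- arrays and 8.40, 8.45 and 8.62 on the immature arrays. Parp1, the polymerase that marks strand breaks with ADP-ribose chains, had 6.64 and 6.86 in CCR7+Il12b+ cells, 7.54, 7.34 and 6.99 in CCR7+Il12b- cells and 7.89, 8.16 and 8.15 in immature cells. For both genes the 3 fractions did not overlap and the CCR7+Il12b- arrays lay between the others. Apex1 was 2.58-fold lower in CCR7+Il12b+ than in immature cells (log2 change -1.37, SE 0.13, adjusted p = 1.27e-05), 1.64-fold lower in CCR7+Il12b- than in immature cells (log2 change -0.71, SE 0.12, adjusted p = 0.00118) and 1.58-fold lower in CCR7+Il12b+ than in CCR7+Il12b- cells (log2 change -0.66, SE 0.13, adjusted p = 0.0123). The last call ended without CCR7+Il12b- replicate 2 (0.0532) or CCR7+Il12b+ replicate 1 (0.0970). Parp1 was 2.50-fold lower in CCR7+Il12b+ than in immature cells (log2 change -1.32, SE 0.17, adjusted p = 0.000101) and 1.71-fold lower in CCR7+Il12b- than in immature cells (adjusted p = 0.00318). Its difference of -0.54 between the matured fractions was not called (adjusted p = 0.0859), and without CCR7+Il12b- replicate 3 it was -0.69 (adjusted p = 0.0172). The scaffold gene Xrcc1, the ligase gene Lig3 and Ung, which removes uracil from DNA, were not called, with changes from -0.28 to 0.10.

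The promoters of Apex1 and Parp1 are shown because their fitted falls in CCR7+Il12b+ against immature cells were the largest after that of Atm. Xrcc6 also fell by more than 2-fold with every fraction above the mark, and its window, not printed in full, holds a CCAAT box. Capitals again mark the CCAAT box, found at positions -45 and 12 from the Apex1 start site and not in the Parp1 window.
Apex1, chr14:50924699-50924998, + strand: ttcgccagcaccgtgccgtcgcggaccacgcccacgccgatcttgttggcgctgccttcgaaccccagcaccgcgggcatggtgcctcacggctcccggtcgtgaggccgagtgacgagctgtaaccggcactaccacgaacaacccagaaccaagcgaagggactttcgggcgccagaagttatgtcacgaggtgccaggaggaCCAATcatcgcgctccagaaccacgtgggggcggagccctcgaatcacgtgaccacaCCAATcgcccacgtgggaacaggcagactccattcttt
Parp1, chr1:180568641-180568940, + strand: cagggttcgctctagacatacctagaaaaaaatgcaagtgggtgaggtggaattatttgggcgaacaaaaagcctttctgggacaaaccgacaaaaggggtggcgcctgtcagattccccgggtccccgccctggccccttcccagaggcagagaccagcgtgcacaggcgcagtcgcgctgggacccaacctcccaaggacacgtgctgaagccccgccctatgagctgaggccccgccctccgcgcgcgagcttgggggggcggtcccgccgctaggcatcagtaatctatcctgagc

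In nucleotide excision repair Xpa, Ercc1 and Xpc fell in CCR7+Il12b+ against immature cells, and Ercc3 and Ddb2 were not called. The falls are 60% of the 5 genes, beside 17.9% of all genes and 27.1% of genes with a group mean above the mark. Xpa, the scaffold that verifies a lesion, had log2 expression of 7.03 and 7.12 in CCR7+Il12b+ cells, 7.45, 7.12 and 6.30 in CCR7+Il12b- cells and 7.78, 7.86 and 8.03 in immature cells. The CCR7+Il12b- arrays were widely spread, with replicate 3 the lowest of all 8. Xpa was 1.76-fold lower in CCR7+Il12b+ than in immature cells (log2 change -0.82, SE 0.26, adjusted p = 0.0330) and 1.91-fold lower in CCR7+Il12b- than in immature cells (log2 change -0.94, SE 0.23, adjusted p = 0.0129). The first call ended when either CCR7+Il12b+ array or immature replicate 2 or 3 was dropped (adjusted p from 0.0703 to 0.123) or the arrays were quantile normalized again (0.0567), and the second without immature replicate 3 (0.0539). Ercc1, part of the nuclease that cuts on the 5′ side of the lesion, was 1.59-fold lower in CCR7+Il12b+ and 1.51-fold lower in CCR7+Il12b- than in immature cells (adjusted p = 0.00249 and 0.00394). Xpc, the sensor of distorted DNA, was 1.37-fold lower in CCR7+Il12b+ than in immature cells (adjusted p = 0.0129, and 0.0563 without immature replicate 3 or 0.0663 without CCR7+Il12b+ replicate 2). Its difference of -0.19 between CCR7+Il12b- and immature cells was not called. Mgmt, which reverses alkylation of guanine directly, differed by at most 0.05 between fractions (SE at most 0.16) and was not called.

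**Figure D4:**
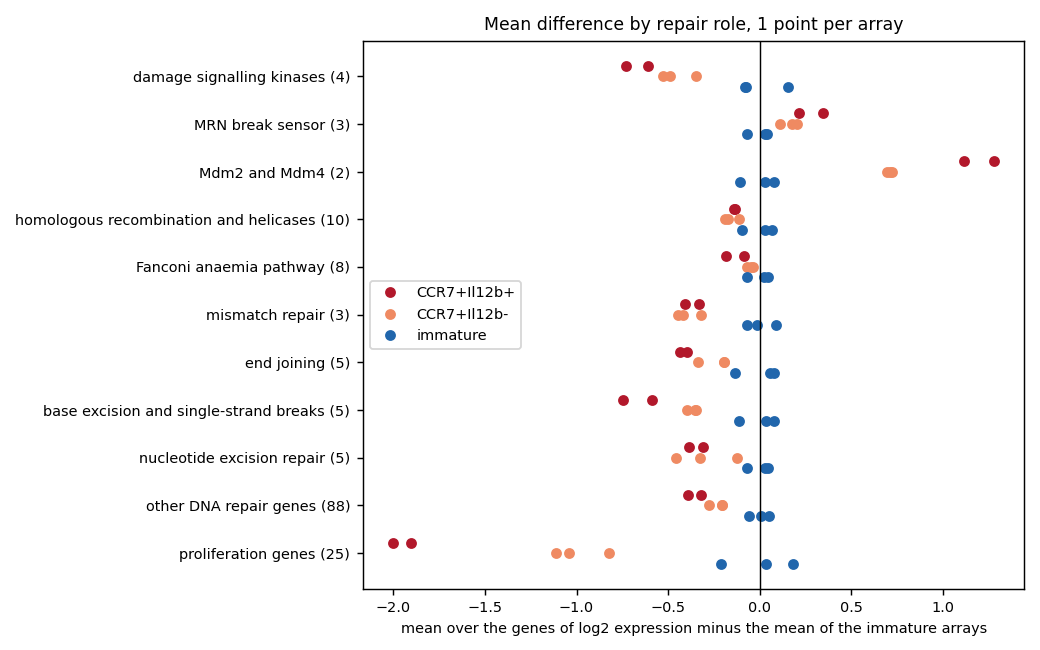
Mean over the genes of each repair role of log2 expression minus the mean of the immature arrays (x axis), with 1 point per array for CCR7+Il12b+, CCR7+Il12b- and immature arrays, and the number of genes in brackets. Mdm2 and Mdm4 and the break-sensing complex lie to the right of zero in the matured arrays. The other roles shown, the 88 other DNA repair genes and the 25 proliferation genes lie to the left. Direct reversal (Mgmt alone) is not shown.

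Averaged by role, Mdm2 and Mdm4 stood 1.11 to 1.28 above the immature mean on the CCR7+Il12b+ arrays and 0.69 to 0.72 above it on the CCR7+Il12b- arrays, on the log2 scale. The damage kinases stood -0.73 to -0.61 from it on the CCR7+Il12b+ arrays, although they include the rise of Atr, and the base excision genes -0.74 to -0.59. Homologous recombination and the Fanconi anaemia genes lay close to the immature mean, at -0.19 to -0.09 on the CCR7+Il12b+ arrays. The other DNA repair genes, 88 measured and listed apart from the 46, gave 7 higher and 35 lower calls in CCR7+Il12b+ against immature cells, 4 and 27 in CCR7+Il12b- against immature cells and 3 and 10 between the matured fractions, with median changes of -0.28, -0.20 and -0.10. The lower calls are 39.8%, 30.7% and 11.4% of the 88, beside 17.9%, 14.5% and 4.47% of all genes, and the higher calls 7.95%, 4.55% and 3.41%, beside 14.1%, 9.10% and 2.61%. Among them Tipin, which protects replication forks, was at least 5.61-fold lower in CCR7+Il12b+ than in immature cells (adjusted p = 2.22e-05), and Wee1, the kinase that restrains entry into mitosis, was 2.75-fold higher (adjusted p = 5.36e-05). Parp3, a relative of Parp1 that acts at double-strand breaks, was 2.04-fold higher in CCR7+Il12b+ than in CCR7+Il12b- cells (adjusted p = 0.000687).

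Promoter windows of 300 bases were found in the RefSeq table (GRCm38.p6) for 37 of the 46 genes, 42 windows in all. They held a median of 21.5 CpG dinucleotides and a GC content of 60%, against 7 and 52.7% for all 32851 promoters of the table. On both strands, the E2F motif TTTCCCGC was found in 16.7% of these windows and in 1.07% of all promoters, and the form TTTGGCGC in 2.38% and 0.514%. E2F factors control genes of DNA replication. The CCAAT box was found in 47.6% of the windows and 37.4% of all promoters and the cell cycle homology motif TTTGAA in 2.38% and 17.9%. Matches of different motifs were counted separately, also where they overlapped. Base composition was not matched. By response in CCR7+Il12b+ against immature cells, either E2F form was in 4 of 13 windows of genes that fell (Bard1, Chek2, Xrcc6 and Msh6), in 0 of 6 windows of genes that rose and in 4 of 23 windows of genes not called (Brca2, Fancg, Rad51c and Msh3). Of all promoters 1.56% held either form. The 6 windows belong to 5 genes, with Mdm4 counted for each of its windows. Wrn, Rad50 and Nbn, which also rose, and Exo1, Prkdc and Xpc, which fell, had no window. These groups were not tested against each other.

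All 8 matches are printed as 40-base stretches on the strand of the gene, chosen after the values were seen, with the E2F motif in capitals. The first 4 belong to genes that fell and the last 4 to genes that were not called.
Bard1, chr1:71103158-71103197, - strand: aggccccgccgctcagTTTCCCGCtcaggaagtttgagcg
Chek2, chr5:110839815-110839854, + strand: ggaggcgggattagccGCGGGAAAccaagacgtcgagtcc
Xrcc6, chr15:82016307-82016346, + strand: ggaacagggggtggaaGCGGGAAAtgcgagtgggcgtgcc
Msh6, chr17:87975049-87975088, + strand: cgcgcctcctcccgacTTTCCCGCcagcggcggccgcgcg
Brca2, chr5:150522437-150522476, + strand: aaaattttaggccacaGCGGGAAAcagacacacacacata
Fancg, chr4:43010330-43010369, - strand: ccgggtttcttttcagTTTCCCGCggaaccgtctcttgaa
Rad51c, chr11:87404936-87404975, - strand: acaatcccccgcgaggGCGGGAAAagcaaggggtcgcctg
Msh3, chr13:92355182-92355221, - strand: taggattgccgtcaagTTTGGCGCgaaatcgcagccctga
The matches read GCGGGAAA where the motif lies on the other strand, as in Chek2, Xrcc6, Brca2 and Rad51c. They lie between position -209 from the start site, in Bard1, and position 15, in Msh6.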

How the data were processed

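RNA of 8 sorted samples was measured on 1 array each. The authors deposited log2 expression per probe set. The submitters' processing notes name RMA and oligo for this, without the versions. RMA makes the arrays' distributions alike, which hides changes in the total RNA of a cell, and the array medians still ran from 5.25 to 5.46.

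Of 35556 rows, 21789 had exactly 1 symbol in the platform annotation, 1621 had several and 12146 had none. The row with the highest mean stood for each of 19938 genes, and 44 of the 46 DNA repair genes had 1 row (Nbn had 2, Bard1 had 3). The background mark of 4.98 is the 95th percentile of the means of 1190 olfactory and vomeronasal receptor genes. No gene was removed before testing. For a bound, each array of the dim group counted at its value or at the mark, whichever was higher.

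Group means of all 8 arrays were fitted in 1 model with limma 3.58.1 (R 4.3.3; lmFit, eBayes), two-sided, with Benjamini-Hochberg adjustment over all genes. The number of arrays limits the precision. On simulated data between 84 and 88% of genes with a log2 change of 1 were recovered in the 3 comparisons. Alternatives were a fit on 2 groups, a fixed or random replicate block, 3 filters on dim genes, 3 normalizations, 2 variance models, array weights, 2 treatments of rows and leaving out each array. Values on every array are given for the 6 largest called rises and falls of a comparison, and for Mdm2, Mdm4, Atm, Atr, Brca1 and Parp1. Same-numbered arrays did not deviate together (correlations from -0.169 to 0.216), so the numbers were not taken as pairs. The genes and lists were chosen with earlier results of these data known. Genes or markers without a row of 1 symbol were not analysed here.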

Additional observations from a re-analysis of the deposited data

How the results depend on the processing

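Of 20 calls in CCR7+Il12b- against immature cells 12 were kept in every alternative that tested the gene, of 24 in CCR7+Il12b+ against immature cells 17, and of 5 between the matured fractions 0. Over all 2958 recomputed gene values, 78 calls were lost and 50 gained. A change of sign was seen in 95 values, from 35 combinations of a gene and a comparison, 0 of them called in either fit. The 14 falls in CCR7+Il12b- against immature cells became 9 among genes above the median. That filter left Chek1, Chek2, Palb2, Exo1 and Blm untested, and every fall that it tested stayed called. The falls became 9 to 14 when 1 array was left out (9 without immature replicate 2 or 3). The 2 rises between the matured fractions became 0 after median centring and 1 with array weights, and 0 to 3 without 1 array (0 without CCR7+Il12b+ replicate 1 or 2 or CCR7+Il12b- replicate 1 or 2). The 3 falls between them became 1 in the fit on 2 groups and 5 after cyclic loess, and 0 to 5 without 1 array (0 without CCR7+Il12b+ replicate 1, 1 without CCR7+Il12b- replicate 1 or 2, and 5 without CCR7+Il12b- replicate 3). Apart from the filter on the median, the cause of these shifts was not tested. The other counts stayed within 1.5 times: without 1 array they were 7 to 8 rises and 12 to 17 falls in CCR7+Il12b+ against immature cells, and 4 to 7 rises in CCR7+Il12b- against immature cells. Median centring lowered the median change of all genes by 0.14 in CCR7+Il12b+ and by 0.10 in CCR7+Il12b- against immature cells. It gave 7 rises and 22 falls in CCR7+Il12b+ and 5 and 19 in CCR7+Il12b- against immature cells, and 0 and 3 between the matured fractions. Under the 3 normalizations Brca2, Fancb, Fanci, Fancm and Pms2 were called lower in CCR7+Il12b+ against immature cells. With replicate number as a block, which the data did not show to pair arrays, the falls between the matured fractions became 1 (Apex1), those in CCR7+Il12b- against immature cells 12, and the counts in CCR7+Il12b+ against immature cells were again 16 falls and 8 rises, with Bard1 lost (adjusted p = 0.0758) and Fancb gained (0.0498). Genes near the background mark, and groups of 2 or 3 arrays, limit what can be called.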

Other observations

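Many of the DNA repair genes share their promoter region with a gene on the other strand. A start site of a gene running the other way lay within 1000 bases for 15 of the 37 genes with a promoter in the RefSeq table, or 40.5%, against 12.3% of all 27025 genes there. In CCR7+Il12b+ against immature cells the partner fell where the repair gene fell for Apex1 (Osgep, which modifies tRNA, with a log2 change of -0.77 and adjusted p = 0.00194), Xrcc6 (Desi1, -0.83, adjusted p = 0.00251) and Palb2 (Dctn5, a dynactin subunit, -0.86, adjusted p = 0.000283). Beside Atm, which was at least 2.43-fold lower, the partner Npat, a factor for histone transcription, changed by -0.29 and was not called (adjusted p = 0.191). Brca1 rose by 0.82 while its partner Nbr1, an autophagy receptor gene, changed by 0.01 (adjusted p = 0.980). Atr rose by 0.91 while its partner 1700065D16Rik changed by -0.04 (adjusted p = 0.857). Pms2 was not called, with a change of -0.42, and its partner Aimp2, a scaffold of tRNA synthetases, had a change of -1.85 (adjusted p = 1.02e-05). Fancb and Xrcc4 were not called either, while their partners Mospd2 (-0.95, adjusted p = 0.0020) and Tmem167 (-0.63, adjusted p = 0.0186) fell. In CCR7+Il12b- against immature cells Atm (-0.95) and its partner Npat (-0.46, adjusted p = 0.0341) both fell. These pairs were looked at after the values were seen, and no test was made of them as a group.

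Among the other DNA repair genes in CCR7+Il12b+ against immature cells, 5 of 7 translesion genes fell and 0 rose by limma (1, Rev1, named after its value was seen, was higher at an unadjusted p under 0.05), with a median log2 change of -0.90. These include Pcna, the sliding clamp that replication also uses (-1.31). Of 18 other signalling genes 11 fell and 2 rose, with a median of -0.84. Of all genes 17.9% fell and 14.1% rose. The translesion polymerase gene Poli averaged 5.63, 6.31 and 7.47 in CCR7+Il12b+, CCR7+Il12b- and immature cells and was 3.57-fold lower in CCR7+Il12b+ than in immature cells (adjusted p = 7.97e-06). Cetn2, a partner of Xpc, averaged 5.24, 5.71 and 7.08 and was 3.60-fold lower in CCR7+Il12b+ than in immature cells (adjusted p = 0.000196).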
